A study of Mus musculus with 69 samples.

Results

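Immediate early genes are transcribed within minutes of a signal reaching a cell, without new protein synthesis, and their mRNAs are short-lived. Calcium, cyclic AMP and MAP kinase signalling switch them on through factors already present in the nucleus, such as CREB and SRF. Many of their products are transcription factors that act on a later set of genes. In pituitary they respond to hypothalamic releasing hormones such as GnRH, in hypothalamus to neuronal firing, and in ovary to the LH surge, and they can also respond to handling and dissection.

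The 10 immediate early genes described here were taken by symbol as Fos, Fosb, Junb, Nr4a1, Nr4a2, Nr4a3, Egr2, Npas4, Ier2 and Arc. They are 10 of the 55964 gene IDs in the tables, with 1 ID each, and all 10 were followed in all 69 libraries. Fos, Fosb and Junb encode subunits of the AP-1 dimer, Nr4a1, Nr4a2 and Nr4a3 orphan nuclear receptors, Egr2 a zinc finger factor and Npas4 a bHLH-PAS factor of excited cells. Ier2 encodes a small nuclear regulator, and Arc a capsid-forming protein of the synapse that is no transcription factor.

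The libraries came from pituitary, hypothalamus and ovary of female C57BL/6J mice in proestrus. WT mice carried unaltered Zeb1, Zeb1_200H mice (200H) were heterozygous and Zeb1_200M mice (200M) homozygous for an allele whose miR-200a and miR-200b sites in the 3′ untranslated region were mutated. Zeb1 encodes a repressor of transcription, and the allele was present in every cell of the animal, in lines of 2 ES cell clones per the study's methods, with no clone given per library. Virgin mice of 8 to 12 weeks made up the young cohort, and mice of 28 to 36 weeks, after a breeding trial, the older one.

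Each group held 4 libraries, apart from 3 in young WT pituitary, older 200M pituitary and older 200M hypothalamus, and the study's methods call them biological replicates. In young WT pituitary, the column name of 1 library held the number 3, which no sample title of the group holds, and it is named replicate u. The young libraries were ribosomal RNA depleted, stranded and read from both ends, and the older ones poly(A) selected, unstranded and read from 1 end. Cohort, age, breeding history and library chemistry cannot be told apart. A young library held 7.56e+06 to 1.33e+07 counts in pituitary, 3.32e+06 to 5.14e+06 in hypothalamus and 6.34e+06 to 1.29e+07 in ovary. An older library held 4.53e+06 to 1.30e+07, 1.02e+07 to 1.39e+07 and 7.99e+06 to 1.47e+07 counts. The labelled tissues matched their markers in WT, as the lactotrope genes Prl and Pou1f1 summed to at least 133800 counts per 1000000 counts of a library (CPM) in pituitary, 10 neuron genes to at least 4249 CPM in hypothalamus, and 7 granulosa genes to at least 3022 CPM in ovary. Zeb1 was higher than in WT in all 4 pituitary comparisons, with log2 fold changes of 0.33 to 0.55, and its 8 log2 fold changes against WT in hypothalamus and ovary were −0.26 to −0.05, with edgeR adjusted p of 0.161 or more.

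The genes lie on 8 chromosomes of GRCm38 (GENCODE M21). Fos is at chr12:85473890-85477273 on the plus strand, Fosb at chr7:19302696-19310051 on the minus strand, Nr4a1 at chr15:101254269-101274795 on the plus strand, Nr4a2 at chr2:57106830-57124003 on the minus strand and Npas4 at chr19:4984355-4990316 on the minus strand. Junb is at chr8:84974484-84978718, Ier2 at chr8:84661331-84662852 and Arc at chr15:74669083-74672570, all on the minus strand, and Nr4a3 at chr4:48045153-48086447 and Egr2 at chr10:67535475-67542188 on the plus strand. The 250 bases before the start of transcription are shown for Fosb, Nr4a1, Nr4a2 and Npas4, which are among the genes called in young 200M pituitary, and for Fos, which varied most between libraries there, 5′ to 3′ on the strand of the gene (RefSeq, GRCm38.p6). The starts used for Nr4a1 and Npas4 lie inside the annotated genes, which begin further upstream, and that for Fosb lies a few bases inside. Capitals mark the core of the cyclic AMP response element, which CREB can bind and which reads TGACG or, on the other strand, CGTCA, and the TATA box, TATAAA or TTTATA.
Fos, chr12:85473640-85473889: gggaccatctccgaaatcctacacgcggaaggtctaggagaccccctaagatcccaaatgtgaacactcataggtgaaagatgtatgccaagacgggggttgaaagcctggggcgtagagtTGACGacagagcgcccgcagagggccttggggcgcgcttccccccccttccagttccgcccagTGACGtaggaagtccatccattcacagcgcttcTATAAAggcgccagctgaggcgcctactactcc
Fosb, chr7:19310046-19310295: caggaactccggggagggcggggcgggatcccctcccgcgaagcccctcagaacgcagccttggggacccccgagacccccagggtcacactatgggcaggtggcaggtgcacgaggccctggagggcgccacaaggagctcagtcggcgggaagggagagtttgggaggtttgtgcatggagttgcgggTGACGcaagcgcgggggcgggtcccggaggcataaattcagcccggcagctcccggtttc
Nr4a1, chr15:101266596-101266845: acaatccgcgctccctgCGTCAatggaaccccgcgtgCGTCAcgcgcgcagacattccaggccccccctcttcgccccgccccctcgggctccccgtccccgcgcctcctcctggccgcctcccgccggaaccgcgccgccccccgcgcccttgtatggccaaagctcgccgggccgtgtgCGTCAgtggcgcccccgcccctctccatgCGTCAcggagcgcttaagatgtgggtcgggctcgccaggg
Nr4a2, chr2:57124004-57124253: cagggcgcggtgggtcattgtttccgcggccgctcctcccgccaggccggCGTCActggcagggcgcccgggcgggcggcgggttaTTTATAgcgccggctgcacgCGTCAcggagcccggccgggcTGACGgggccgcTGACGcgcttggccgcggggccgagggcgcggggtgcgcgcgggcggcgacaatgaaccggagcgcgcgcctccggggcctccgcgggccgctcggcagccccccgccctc
Npas4, chr19:4989972-4990221: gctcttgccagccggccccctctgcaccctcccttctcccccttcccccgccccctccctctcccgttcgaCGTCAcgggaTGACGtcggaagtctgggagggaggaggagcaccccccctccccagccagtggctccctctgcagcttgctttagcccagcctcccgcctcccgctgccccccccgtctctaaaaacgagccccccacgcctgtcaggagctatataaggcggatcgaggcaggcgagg

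The promoter table held 8 of the 10 genes, all but Ier2 and Arc. All 8 had at least 1 core element in these 250 bases, against 17.8% of 32851 promoters of the same length. Here and below a gene counted if any of its listed promoters held the element, whereas the shares are of single promoters. Nr4a1, Nr4a2 and Nr4a3 had 4 copies each, Fos and Npas4 2, and Fosb and Junb 1. Egr2 had 2 copies in each of 3 of its 5 listed promoters and 0 in the others. The starts used here for Nr4a3 and Egr2 lie inside the annotated genes as well. The copy nearest the start of transcription is shown for the 3 genes not printed above, in a window of 30 bases with the element in capitals (RefSeq, GRCm38.p6, strand of the gene).
Junb, chr8:84978837-84978866: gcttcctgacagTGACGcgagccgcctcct
Nr4a3, chr4:48045146-48045175: ctgtggcataaaTGACGtgccgagagagcg
Egr2, chr10:67537802-67537831: tatgggcagcgaCGTCAcgggtattgaaga

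Other elements were rarer. The full element TGACGTCA was in 0 of the 8 promoters (1.55% of all promoters), the TATA box in 2, Fos and Nr4a2 (12.4% of all), and the CArG box bound by SRF in 1, Egr2 (1.47% of all). The AP-1 element TGANTCA (6.75% of all) and the NR4A element AAAGGTCA (1.34% of all) were in 0 of the 8. The E-box CAGGTG, a letter string that ZEB1 can bind, was in 1, Fosb, in 2 copies (17.2% of all). The study gives the ZEB motif as CAGGTR, with R for A or G, and the form CAGGTA was not searched. All elements counted here were searched on both strands, the core element lies inside the full one, and a match describes the letters only.

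The knock-in removes miR-200 sites from Zeb1, so the 10 genes were also read for seed matches of their own. The seeds, bases 2 to 8, are in capitals, and the family falls into 2 seed groups (RefSeq). The first 2 miRNAs share 1 seed and the last 3 the other.
mmu-miR-141-3p: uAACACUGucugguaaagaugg
mmu-miR-200a-3p: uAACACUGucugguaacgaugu
mmu-miR-200b-3p: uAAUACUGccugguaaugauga
mmu-miR-200c-3p: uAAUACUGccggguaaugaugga
mmu-miR-429-3p: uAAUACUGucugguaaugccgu

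Matches of 7 bases to these seeds were in the annotated 3′ untranslated regions of 3 of the 10 genes (GENCODE M21, GRCm38), and are shown in capitals within 23 bases, with the coordinates of the capitals. Fosb has a match to the miR-200b seed, and Nr4a3 and Egr2 to the miR-200a seed. No binding was measured.
Fosb, chr7:19304047-19304053, minus strand: cccctgtgCAGTATTatgctatg
Nr4a3, chr4:48086070-48086076, plus strand: tatacagcCAGTGTTcttctgtc
Egr2, chr10:67541844-67541850, plus strand: gatgtgggCAGTGTTaacagggt

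Levels in WT are given first, in CPM with TMM scaling across the libraries of each tissue in each cohort. Pituitary held the highest levels for most of the genes. Per kilobase of exon, young WT pituitary was led by Nr4a2 at 127 ± 43.7 CPM per kb (SD, n = 3), before Fos at 86.3 ± 123 and Nr4a1 at 77.2 ± 38.3. In older WT pituitary Nr4a1 led at 191 ± 211 CPM per kb (n = 4), before Junb at 90.6 ± 114 and Nr4a2 at 74.4 ± 74.8, and these neighbours did not differ beyond their spread. Older hypothalamus was led by Fos at 22.5 ± 5.64 CPM per kb, and ovary by Nr4a1, at 6.96 ± 1.84 for young and 42.2 ± 34.4 for older mice (n = 4 each). Egr2 was lowest in all of these.

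Egr2 was at or near 0 in all young tissues and in older ovary, and was counted in older pituitary and hypothalamus. It had 0 counts in all 11 young pituitary libraries, which allows up to 0.225 to 0.397 CPM per library (3 counts of the total, counting error only), whereas the 11 older pituitary libraries held 1.23 to 7.32 CPM. It was also at 0 in 10 of 12 young hypothalamus and 11 of 12 young ovary libraries. Older hypothalamus held 0.695 to 3.14 CPM, and older ovary at most 0.218 CPM, with 0 counts in 4 of 12 libraries. Young libraries and older ovary were counted with featureCounts and GENCODE genes, and older pituitary and hypothalamus with HTSeq and Ensembl genes. Age, chemistry and strand differ between the cohorts but not among the older tissues. The part of each in the zeros was not tested. At these levels Egr2 has no genotype comparison in the young cohort or in older ovary.

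Compared between WT tissues, 8 of 9 tested genes were higher in young pituitary than in young hypothalamus (edgeR quasi-likelihood F test, Benjamini-Hochberg adjusted p under 0.05), where 72.2% of all genes were called in either direction. Junb differed by 4.49 on the log2 scale (SE 0.43), Ier2 by 4.15 (SE 0.51) and Nr4a1 by 4.11 (SE 0.23), and Arc, at −0.64 (SE 0.36), was not called. In the older cohort 8 of 10 were higher in pituitary (76.8% of all genes called), led by Nr4a1 at 4.25 (SE 0.85). Fos, at 0.30 (SE 0.68), and Arc, at −0.65 (SE 0.34), were not called.

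Ovary was below pituitary for all 9 genes tested in the young cohort (68.3% of all genes called) and for 8 of 10 in the older cohort (77% called, and 5 of 10 without pituitary WT replicate 2). The difference was −5.51 (SE 0.19) for Nr4a2 and −1.77 (SE 0.36) for Ier2 in the young cohort. Against hypothalamus, ovary had 2 genes higher and 6 lower of 9 in the young cohort (76.7% called), the higher ones being Ier2 (2.35, SE 0.40) and Junb (1.08, SE 0.31). In the older cohort it had 2 higher and 7 lower of 10 (82.6% called), the higher ones being Ier2 (2.51, SE 0.19) and Nr4a1 (1.63, SE 0.57). Older ovary was counted with another tool and annotation than older pituitary and hypothalamus, so tissue and counting cannot be told apart in its comparisons. Arc and Npas4, genes of excited neurons, were lower in ovary than in hypothalamus in both cohorts, Arc by −3.68 (SE 0.31) and −2.84 (SE 0.75) and Npas4 by −1.75 (SE 0.23) and −3.04 (SE 0.29). The higher pituitary level was thus shared by most of the genes in WT mice, and Arc was the exception in both cohorts.

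**Figure D1:**
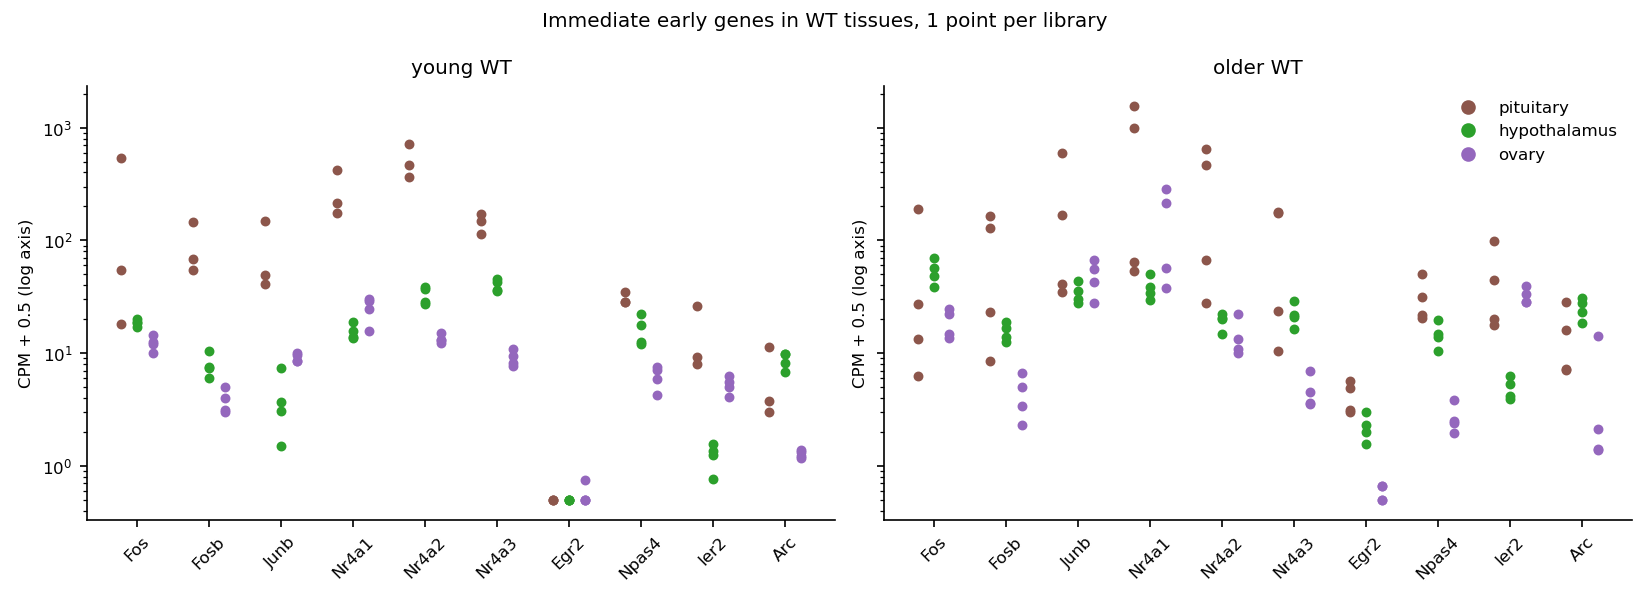
Level of each immediate early gene in WT libraries, as CPM + 0.5 on a log axis, young cohort on the left and older cohort on the right, 1 point per library, coloured by tissue. Pituitary points lie highest for most genes and reach from 53.5 to 1562 CPM for Nr4a1 in the older cohort, while Egr2 sits at 0 CPM in young pituitary and hypothalamus.

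The question in the knock-in mice was whether the immediate early genes differ between genotypes in each tissue. In young 200M pituitary 6 of the 9 tested genes were called against WT, all lower, namely Fosb, Junb, Nr4a1, Nr4a2, Nr4a3 and Npas4, and DESeq2 called 5, all but Junb. Of all 18199 genes tested there 21.5% were called, and 10% were called lower. The median log2 fold change was −1.75 over the 9 genes and 0.00 over all genes. In bulk tissue, fewer cells of a type and less RNA per cell cannot be told apart.

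Among the nuclear receptors, Nr4a2 was at 470, 711 and 366 CPM in the young WT libraries (replicates 1, 2 and u), at 93.4, 263, 160 and 102 CPM in 200H and at 123, 87.6, 134 and 177 CPM in 200M. All 8 mutant libraries lay below all 3 WT libraries. Nr4a2 was 3.97-fold lower in 200M than in WT, or −1.99 on the log2 scale (SE 0.21, edgeR adjusted p = 1.09e-05), and 3.37-fold lower in 200H (−1.75, SE 0.30, edgeR adjusted p = 0.0018).

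Nr4a1 was at 215, 424 and 173 CPM in WT, at 76.3, 115, 142 and 103 in 200H and at 61.2, 42.5, 33.5 and 148 in 200M. Again no mutant library reached the lowest WT library. Nr4a1 was 3.87-fold lower in 200M (−1.95 on the log2 scale, SE 0.40, edgeR adjusted p = 0.00284) and 2.51-fold lower in 200H (−1.33, SE 0.25, edgeR adjusted p = 0.00408). Nr4a3 was at 170, 147 and 114 CPM in WT, at 40.8, 155, 50 and 47.9 in 200H and at 68.9, 49.8, 86.3 and 62.4 in 200M. The 200M libraries lay below WT, but 200H replicate 2 lay within WT, and the difference was −1.11 for 200M (SE 0.15, edgeR adjusted p = 7.77e-05) and −0.97 for 200H (SE 0.36, edgeR adjusted p = 0.0975).

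Among the AP-1 subunits, Fosb was at 67.8, 144 and 53.7 CPM in WT, at 11.6, 79.9, 44.8 and 33.2 in 200H and at 27.6, 17, 26.9 and 35 in 200M. The 200M libraries lay below every WT library and 200H overlapped WT through replicate 2. Fosb was 3.36-fold lower in 200M, −1.75 on the log2 scale (SE 0.28, edgeR adjusted p = 0.000373). In 200H it was at −1.07 (edgeR adjusted p = 0.147), or −1.59 (edgeR adjusted p = 0.0248) without 200H replicate 2.

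Junb was at 48.9, 148 and 40.5 CPM in WT, at 20.4, 34.9, 63.7 and 41.1 in 200H and at 12.7, 14.5, 10.2 and 47.4 in 200M. Both mutant groups overlapped WT, each through 1 or more libraries. Junb changed by −1.97 in 200M (SE 0.48, edgeR adjusted p = 0.00877), which without WT replicate 2 became −1.14 (edgeR adjusted p = 0.0711). DESeq2 did not call it (−1.90, DESeq2 adjusted p = 0.0742). In 200H Junb was not called (edgeR adjusted p = 0.132).

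Fos was the most variable of the genes, at 17.5, 538 and 53.7 CPM in WT, 22.3, 8.59, 205 and 34.2 in 200H and 6.91, 16.5, 13.2 and 172 in 200M. In each genotype 1 library stood far above the others, and the groups overlapped. The difference from WT, −2.03 for 200M (edgeR adjusted p = 0.178) and −1.62 for 200H (SE 0.99, edgeR adjusted p = 0.337), was called in neither. Without WT replicate 2 the values turned to 0.49 and 0.90, and without 200M replicate 4 the 200M value was −4.09 (edgeR adjusted p = 0.00543), so the direction for Fos rested on single libraries.

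Npas4 had the tightest groups, at 28, 34.2 and 27.8 CPM in WT, 14.2, 12.4, 27.4 and 19.1 in 200H and 13.4, 15.7, 13.6 and 19.7 in 200M. All 8 mutant libraries lay below WT, although 200H replicate 3 lay only just under the lowest WT library. Npas4 was 1.95-fold lower in 200M (−0.96 on the log2 scale, SE 0.14, edgeR adjusted p = 0.000212) and 1.66-fold lower in 200H (−0.73, SE 0.21, edgeR adjusted p = 0.0391). The 200H call was lost without any of 6 of the 7 libraries, at edgeR adjusted p = 0.0719 to 0.139, and held without 200H replicate 3.

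The remaining genes did not pass the test. Ier2 was at 7.56, 25.8 and 8.78 CPM in WT, 7.47, 5.15, 14.1 and 5.8 in 200H and 4.89, 4.91, 3.75 and 13.7 in 200M, with a log2 fold change of −1.12 in 200M (SE 0.44, edgeR adjusted p = 0.0909). Arc was at 3.27, 10.9 and 2.54 CPM in WT, 1.48, 2.66, 6.68 and 2.28 in 200H and 3.96, 3.16, 5.85 and 2.96 in 200M, with −0.46 in 200M (SE 0.41, edgeR adjusted p = 0.475). For both genes all 3 genotypes overlapped.

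In young 200H pituitary the called genes were thus 3 of 9, Nr4a1, Nr4a2 and Npas4, all lower, where 12.3% of all genes were called and 5.72% were called lower. Both mutant comparisons share the 3 WT libraries. Leaving out 200H replicate 3 raised the count to 5, and leaving out any 1 library of the 200M comparison gave 5 to 8 calls, with Fosb, Nr4a1, Nr4a2, Nr4a3 and Npas4 called each time. Between 200M and 200H young pituitary, 0 of 9 genes were called by edgeR (0.0383% of all genes called), 0 by DESeq2, and 1 had an unadjusted p under 0.05.

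**Figure D2:**
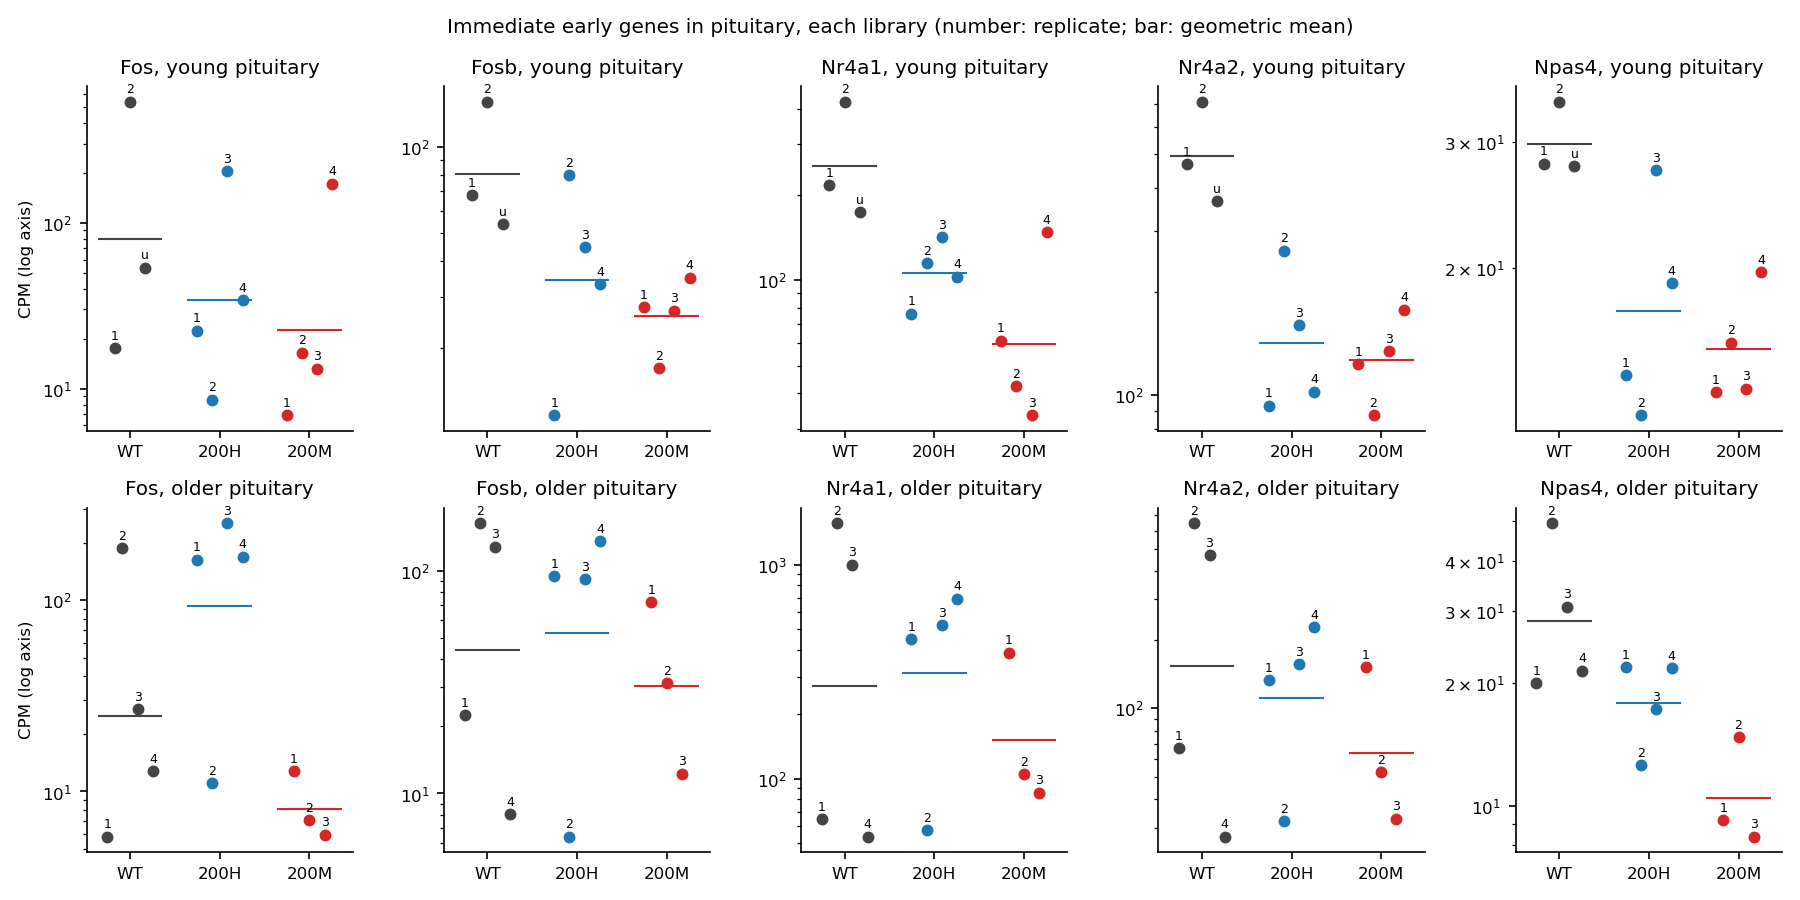
Level of Fos, Fosb, Nr4a1, Nr4a2 and Npas4 in each pituitary library (CPM, log axis), young cohort above and older cohort below, by genotype, with the replicate number at each point and a bar at the geometric mean. In the young cohort all 8 mutant points of Nr4a2 lie below the 3 WT points, the lowest of which is at 366 CPM, and in the older cohort the WT points of Nr4a1 spread from 53.5 to 1562 CPM.

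The same comparison in older pituitary was dominated by the spread within genotypes. Of the 10 genes 1 was called in 200M against WT, Npas4, which was lower, where 21.4% of all genes were called and 9.77% were called lower. In 200H against WT 0 of 10 were called by edgeR (12.2% of all genes called), with 1 at an unadjusted p under 0.05 and 1 called by DESeq2. The median log2 fold change over the 10 genes was −1.50 in 200M and −0.10 in 200H, and −0.01 over all genes in both.

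Npas4 was at 20, 49.4, 30.8 and 21.4 CPM in older WT, 21.9, 12.6, 17.2 and 21.7 in 200H and 9.21, 14.7 and 8.39 in 200M. The 3 libraries of 200M lay below all 4 of WT, while 200H overlapped WT. Npas4 was 2.74-fold lower in 200M, −1.45 on the log2 scale (SE 0.31, edgeR adjusted p = 0.00584).

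Nr4a1 was at 64.4, 1562, 998 and 53.5 CPM in older WT, 448, 57.4, 522 and 694 in 200H and 388, 105 and 85.9 in 200M. Within WT replicates 2 and 3 were high and replicates 1 and 4 low, and the 29.2-fold range of WT spanned every library of both mutants. Its log2 fold change in 200M was −1.77 (SE 0.98, edgeR adjusted p = 0.226). Nr4a2 followed the same order in WT, at 67.1, 646, 468 and 27.5 CPM, with 133, 32.1, 156 and 226 in 200H, 151, 52.8 and 32.9 in 200M and a log2 fold change of −1.92 (edgeR adjusted p = 0.138). Nr4a3 did so as well, at 23.2, 174, 179 and 9.96 CPM in WT, 29, 15.1, 37.4 and 92.8 in 200H and 73.4, 27.2 and 19.4 in 200M.

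Fos was at 5.79, 188, 27 and 12.8 CPM in older WT, 163, 11.1, 254 and 169 in 200H and 12.8, 7.1 and 5.93 in 200M. In 200H 3 libraries were high and replicate 2 was low, and all 3 of 200M were low. Against WT the log2 fold change was −2.81 for 200M (SE 1.02, edgeR adjusted p = 0.0694) and 1.32 for 200H (SE 0.90, edgeR adjusted p = 0.389), and 200M against 200H gave −4.13 (SE 0.80, edgeR adjusted p = 0.0715). Both values against WT turned on WT replicate 2, without which Fos was at −0.78 in 200M (edgeR adjusted p = 0.286) and called higher in 200H at 3.34 (edgeR adjusted p = 0.0247).

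Fosb was at 22.5, 163, 128 and 8.1 CPM in WT, 94.6, 6.4, 91.5 and 136 in 200H and 72, 31.4 and 12.3 in 200M. Junb was at 40.7, 590, 168 and 34.7 CPM in WT, 232, 47.9, 291 and 308 in 200H and 97.5, 18.7 and 21.7 in 200M. Both overlapped between all genotypes, with differences from WT on the log2 scale in 200M of −1.05 for Fosb (SE 0.80) and −2.18 for Junb (SE 0.90, edgeR adjusted p = 0.107). Without WT replicate 2 the differences in 200M were −0.40 for Fosb, −0.81 for Junb, −0.94 for Nr4a1, −1.23 for Nr4a2 and −0.78 for Nr4a3. Junb, which shares a stretch of the genome with Prdx2 on the other strand, was counted from unstranded reads in all older libraries. Reads of the overlap cannot be told apart in any older tissue.

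Ier2 was at 19.5, 98.6, 44.2 and 17.2 CPM in WT, 68.6, 19.4, 91.1 and 68.4 in 200H and 16.9, 15.2 and 14.1 in 200M. The 200M libraries lay just below the lowest WT library, and the log2 fold change was −1.54 in 200M against WT (edgeR adjusted p = 0.0526). Arc was at 6.62, 27.9, 15.4 and 6.67 CPM in WT, 14.1, 6.5, 10.5 and 17.4 in 200H and 5.02, 15.4 and 12.1 in 200M. Egr2 was at 2.48, 4.38, 5.2 and 2.63 CPM in WT, 3.96, 2.13, 3.76 and 7.32 in 200H and 3.56, 1.81 and 1.23 in 200M, and Arc and Egr2 overlapped throughout.

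Between 200M and 200H older pituitary 0 of 10 genes were called by edgeR (0.121% of all genes called), with 5 at an unadjusted p under 0.05 and 2, Fos and Ier2, called by DESeq2. Single libraries decided these counts. Without 200H replicate 2 the count was 5, with Fos at −4.52 (edgeR adjusted p = 7.99e-07) and Ier2 at −2.29 (edgeR adjusted p = 2.68e-06). For 200M against WT it was 5 without WT replicate 4 and 3 without WT replicate 1, and for 200H against WT it was 1 without WT replicate 2 or WT replicate 4.

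**Figure D3:**
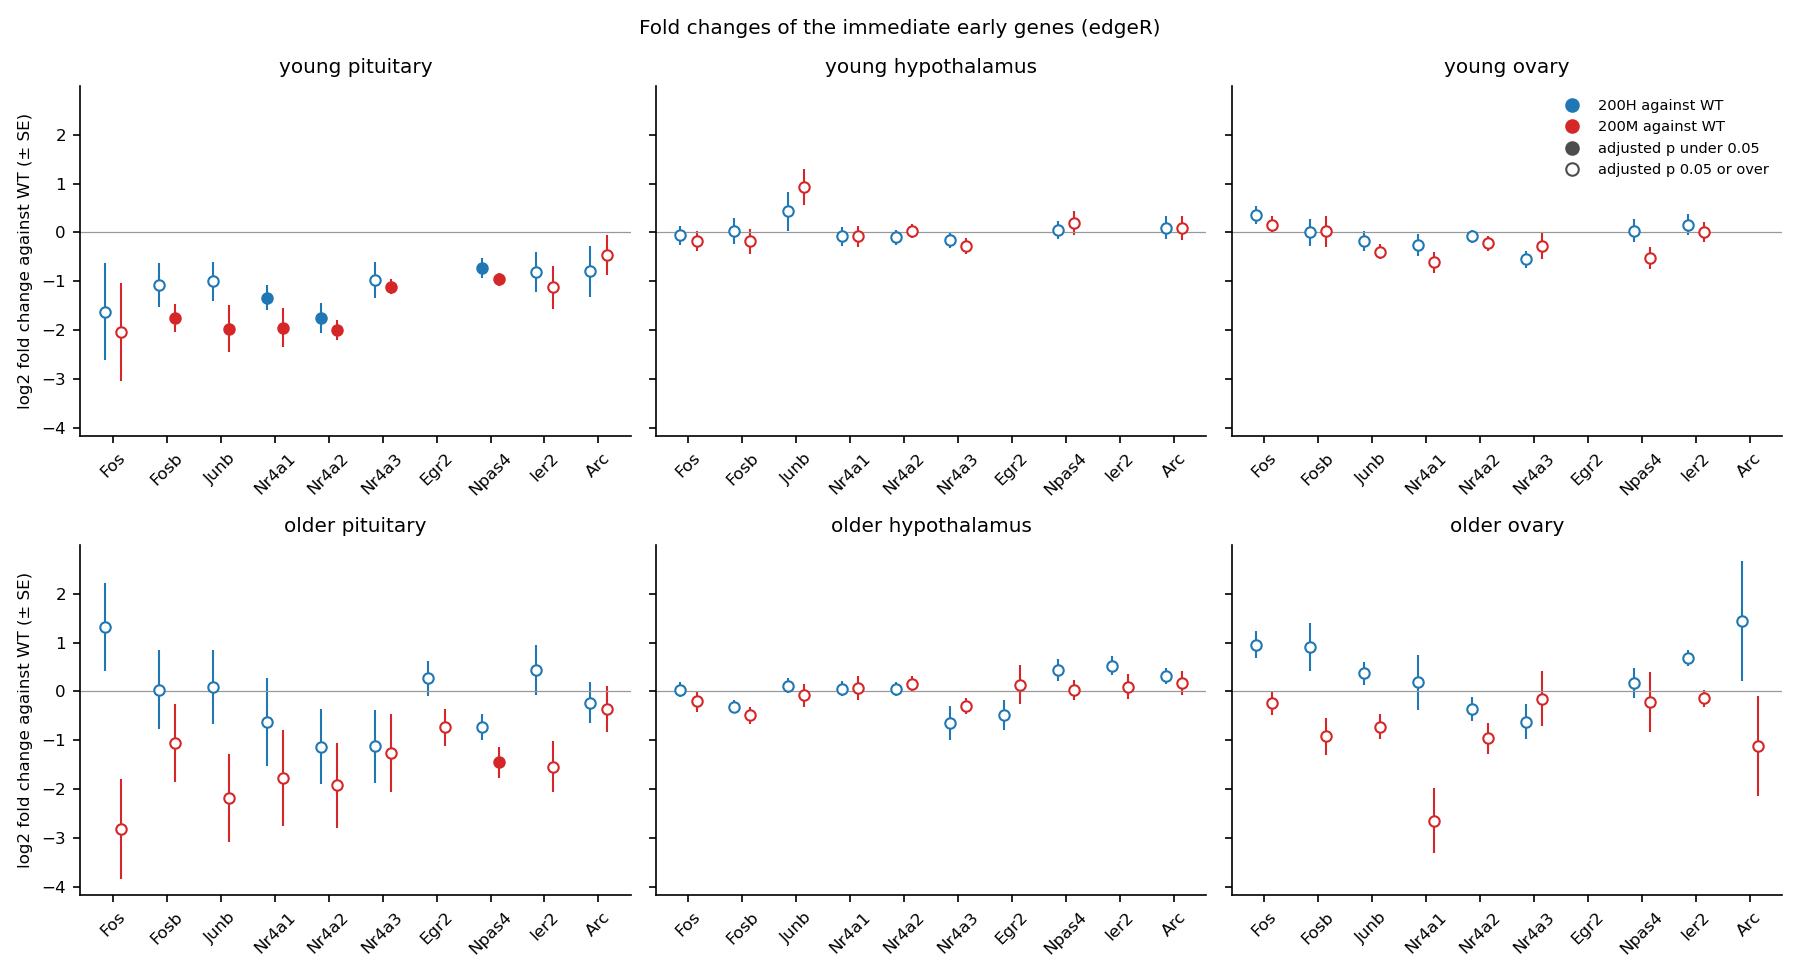
Log2 fold change against WT (± SE) of each immediate early gene in 200H (blue) and 200M (red), by tissue and cohort, with filled points for adjusted p under 0.05 (edgeR) and open points otherwise. Filled points are seen in pituitary alone, 6 for 200M and 3 for 200H in the young cohort and 1, Npas4 in 200M, in the older cohort; a gene not tested has no point.

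The spread between pituitary libraries of 1 genotype was large for these genes. Their within-group SD of log2 CPM in older pituitary was 1.95 for Nr4a1, 1.85 for Fosb, 1.82 for Fos, 1.63 for Nr4a2, 1.55 for Junb and 1.51 for Nr4a3, down to 0.472 for Npas4. In young pituitary it was 2.09 for Fos and 0.349 to 0.878 for the 8 others detected. The biological coefficient of variation of Fos in young pituitary, 0.959, was the highest of 18676 genes, where the median was 0.117. The within-group SD of log2 CPM in hypothalamus was 0.217 to 0.624 over the 10 genes and both cohorts, in young ovary 0.171 to 0.435, and in older ovary at most 0.911 (Nr4a1) apart from Arc at 1.59.

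The genes moved together from library to library in older pituitary. After subtraction of the genotype means, the 36 pairs among the 9 genes that averaged 50 counts or more had correlations of log2 CPM from 0.547 to 0.982 over 11 libraries, with a median of 0.865. WT replicate 2 was highest in its group for 8 of the 9 genes and WT replicate 4 lowest for 6, 200H replicate 2 was lowest for all 9, and 200M replicate 1 was highest for 7. On average over the 9 genes WT replicate 2 lay 3.69-fold above and WT replicate 4 at 0.332 of the mean of its group. These points share their libraries and scaling factors, so the correlations describe the libraries and carry no p.

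In young pituitary 24 of 28 pairs were positive, with a median of 0.612 over 11 libraries. WT replicate 2 was highest for 7 of 8 genes and 200M replicate 4 for 7 of 8. In 200H the genes divided, as replicate 3 was highest for Fos, Junb, Nr4a1, Npas4 and Ier2, and replicate 2 for Fosb, Nr4a2 and Nr4a3. In the other tissues the median was 0.498 in older hypothalamus, 0.187 in older ovary, 0.182 in young hypothalamus and 0.044 in young ovary.

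**Figure D4:**
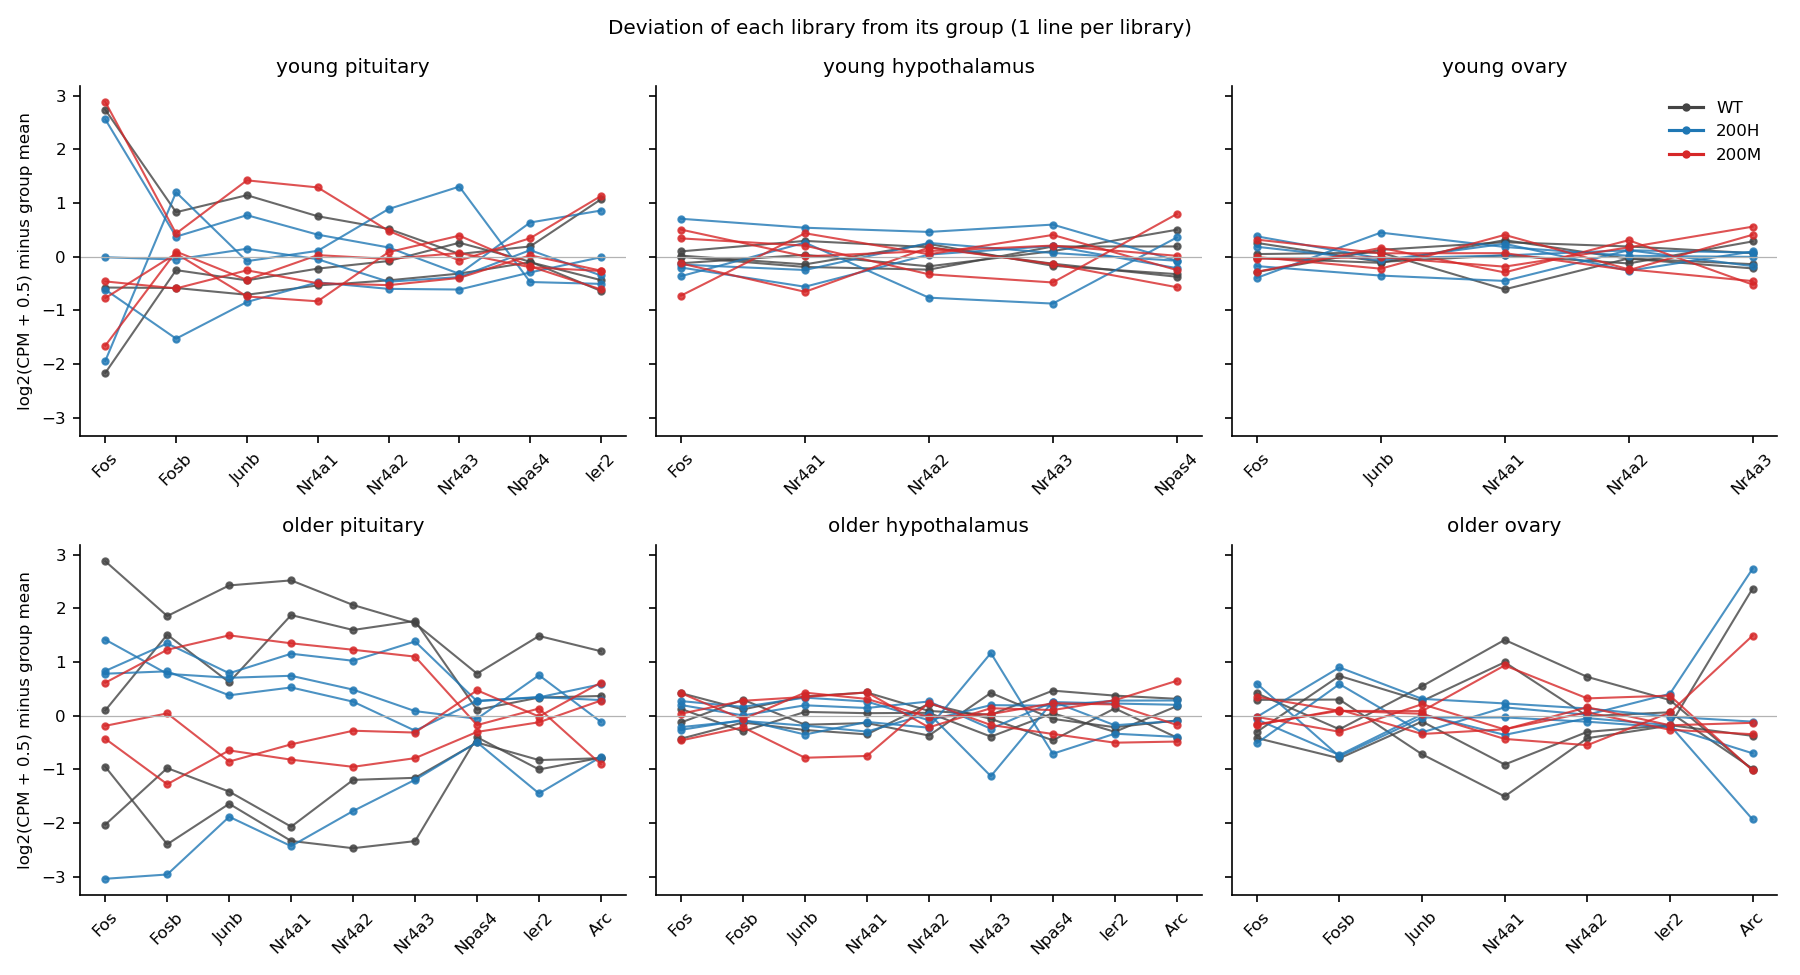
Deviation of each library from the mean of its group, as log2(CPM + 0.5), for each gene with enough counts (x axis), 1 line per library coloured by genotype, by tissue and cohort. In older pituitary the lines run nearly parallel, with WT replicate 2 at a mean of 1.88 and 200H replicate 2 at −1.78, whereas in hypothalamus and young ovary most points stay close to 0.

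The genes most like the mean of the immediate early genes in older pituitary, among 11216 genes that averaged 50 counts or more, were Plekhh3 (r = 0.988), Sik1 (0.987), Tent5a, Midn and Ptp4a1 (0.983 each) over 11 libraries. In young pituitary they were Gm47088 and 1700016P03Rik (0.964 each), Gm47075 (0.946), Mest (0.942) and Dusp1 (0.934). In older pituitary 4.16% of genes had r above 0.8, and in young pituitary 0.473%. The top 5 in older hypothalamus were led by Rab3b (0.955), in young hypothalamus by Gm42936 (0.905), in older ovary by Bloc1s4 (0.867) and in young ovary by Lnx1 (0.834). These are the highest of 9372 to 13954 correlations over 11 or 12 libraries and are given as a description.

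The summed level of the 10 genes ran from 194 to 3504 CPM over the 4 older WT pituitary libraries, an 18-fold range. Over the same libraries 2 lactotrope genes ran from 166800 to 211400 CPM, 5 gonadotrope genes from 1674 to 2044, 10 neuron genes from 706 to 827, the heat shock and handling stress genes from 915 to 1304 and 5 red blood cell genes from 52 to 111. WT replicates 2 and 3, where the 10 genes were high, had the lowest gonadotrope sums (1674 and 1934 CPM) and heat shock and handling stress sums (1189 and 915 CPM). In 200H the 10 genes summed to 1209, 211, 1473 and 1741 CPM and the gonadotrope genes to 1413, 1773, 1182 and 896, and in 200M to 829, 289 and 214 against 1048, 1139 and 1158. The gonadotrope sum thus ran in the reverse order of the 10 genes in both older mutants, but not exactly so in older WT. In young 200H the 10 genes summed to 288, 677, 714 and 389 CPM and the gonadotrope genes to 1067, 985, 1188 and 936, highest in the same library. The order was not reversed in young WT either. In young 200M the library highest for the 10 genes, at 678 CPM, was lowest for the gonadotrope genes, at 827 CPM. The part of the gonadotrope genes in the spread was not tested. Of the older WT libraries, the high ones had 1.30e+07 (replicate 2) and 5.27e+06 (replicate 3) total counts and the low ones 7.77e+06 (replicate 1) and 9.74e+06 (replicate 4). A list of 52 other immediate early genes did move with the 10 genes in older WT, from 1746 CPM in replicate 4 to 4607 CPM in replicate 2. In the same libraries 18 feedback inhibitors of MAP kinase signalling ran from 428 to 1007 CPM.

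Cell markers did differ between genotypes in pituitary. The lactotrope sum was 133800 to 156700 CPM in young WT, 29550 to 63260 in 200H and 38490 to 62500 in 200M, and in the older cohort 166800 to 211400, 59000 to 120000 and 53620 to 71580. Both lactotrope genes were lower in young 200M and 1 of 2, Prl, in older 200M. The gonadotrope sum was 1140 to 1446 CPM in young WT, 936 to 1188 in 200H and 827 to 1044 in 200M, with 2 of 5 genes lower and 1 higher in young 200M. The neuron sum was 1191 to 1277, 1189 to 1365 and 1281 to 1493 CPM, with 2 of 8 tested genes lower and 4 higher. Over all genes 21.5% were called in young and 21.4% in older 200M pituitary. The part of these marker shifts in the lower immediate early genes of young 200M pituitary was not tested.

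Beyond the 10 genes, 48 of the 52 other immediate early genes were tested in young 200M pituitary, of which 16 were lower and 1 higher, with a median of −0.29 against 0.00 over all genes. Of all genes 21.5% were called there, and 10% were called lower. Zfp36, whose protein degrades AU-rich mRNAs, fell by 1.45 on the log2 scale (SE 0.11), Rgs2, which limits Gq signalling, by 1.38 (SE 0.12), the kinase gene Sik1 by 1.10 (SE 0.20), Fosl2 by 0.79 (SE 0.11) and the clock gene Per1 by 0.48 (SE 0.07). In young 200H pituitary 7 were lower and 4 higher of 48 (12.3% of all genes called, 5.72% called lower). In older pituitary 9 were lower and 1 higher of 52 in 200M (21.4% of all genes called, 9.77% called lower), among them Zfp36 (−1.55, SE 0.21), Id1 (−1.57, SE 0.21) and Id3 (−1.04, SE 0.14), and 3 were lower and 1 higher in 200H (12.2% of all genes called).

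Genes upstream and downstream of the immediate early genes did not move as 1 group in pituitary. Of all genes 21.5% were called in young and 21.4% in older 200M against WT, in either direction. Of 18 feedback inhibitors 3 were lower and 5 higher in young 200M and 0 lower and 6 higher in older 200M, with Spred1 higher in both (0.53, SE 0.10, and 0.70, SE 0.13). Of 27 kinases and transcription factors upstream 4 were lower and 5 higher in young and 1 lower and 5 higher in older 200M, with Camk2a, a calcium-dependent kinase gene, higher in both (0.89, SE 0.13, and 0.81, SE 0.11). Of the activity-dependent late response genes, which share Rgs2 with the list above, 2 were lower and 4 higher of 11 tested in young and 0 lower and 4 higher of 9 in older 200M. Vgf, which encodes a secreted neuropeptide precursor, was higher by 2.14 (SE 0.18) and 2.37 (SE 0.22), and the pentraxin gene Nptx1 by 2.14 (SE 0.20) and 1.73 (SE 0.23). Of the 19 heat shock and handling stress symbols, counted as 20 gene IDs in the young cohort, 0 were lower and 1 higher in young 200M and 1 lower and 0 higher in older 200M.

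In hypothalamus the levels of most genes lay closer together than in pituitary, and none of the tested genes was called between genotypes. Some groups were wide, as Nr4a3 ran from 5.06 to 26.8 CPM in older 200H and Junb from 1.02 to 6.83 CPM in young WT. Fos was at 19.5, 16.6, 18.1 and 18.4 CPM in young WT, 14.8, 27.1, 12.7 and 14.2 in 200H and 8.84, 21.4, 13.6 and 19.1 in 200M. In the older cohort it was at 38.3, 56.6, 47.4 and 69.4 CPM in WT, 62.1, 65.4, 44.9 and 46.6 in 200H and 32.1, 59.5 and 45.6 in 200M. The genotypes overlapped in both cohorts, with 200M at −0.18 (SE 0.20) and −0.20 (SE 0.21) of WT on the log2 scale.

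Over all libraries of young hypothalamus Nr4a3 ran from 17.8 to 50.3 CPM, Nr4a2 from 16.6 to 39.4, Npas4 from 10.7 to 28.4, Nr4a1 from 8.42 to 19.9 and Arc from 5.52 to 11.8. In older hypothalamus Junb ran from 16.9 to 45.5 CPM, Nr4a1 from 21.8 to 50.3, Arc from 18.1 to 40.8, Nr4a3 from 5.06 to 28.5 and Npas4 from 9.98 to 22.6. The largest log2 fold change in 200M was 0.93 for Junb in the young cohort (SE 0.37, edgeR adjusted p = 0.824), from 4 to 36 counts a library, and −0.49 for Fosb in the older one (SE 0.18, edgeR adjusted p = 0.193).

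In young hypothalamus edgeR called 0 of 8 genes in 200M against WT (0.02% of all genes called), in 200H against WT (0.0202%) and in 200M against 200H (0%), with 1, 0 and 0 at an unadjusted p under 0.05. In older hypothalamus it called 0 of 10 in 200M against WT (0.00622%), 200H against WT (0%) and 200M against 200H (0%), with 1, 2 and 0 at an unadjusted p under 0.05. The count called by DESeq2 was 0 in all 6.

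In young ovary 0 of 8 tested genes were called in 200M against WT (2.58% of all genes called), 200H against WT (0.0051%) and 200M against 200H (0%) by edgeR, with 3, 1 and 1 at an unadjusted p under 0.05 and 0 by DESeq2 in each. Nr4a1 was at 28.7, 29.5, 15.4 and 24.1 CPM in WT, 19.7, 14, 23 and 22 in 200H and 13.6, 12.6, 16.2 and 20.7 in 200M. The groups overlapped, and the log2 fold change in 200M was −0.61 (SE 0.21, edgeR adjusted p = 0.16). Without WT replicate 3 the 200M count was 1 of the tested genes. The other genes were low, with medians over the 12 libraries of 12.6 CPM for Fos, 12.4 for Nr4a2, 7.21 for Junb and 0.918 for Arc.

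In older ovary 2 of 9 genes, Nr4a1 and Junb, were lower in 200M than in 200H, where 1.61% of all genes were called and 0.902% were called lower, and DESeq2 called 5. Against WT 0 of 9 were called in 200M (2.71% of all genes called), with 4 at an unadjusted p under 0.05 and 2 called by DESeq2, and 0 of 9 in 200H (0%), with 2 at an unadjusted p under 0.05 and 0 by DESeq2.

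Nr4a1, which the LH surge induces in the follicle, was at 37.3, 285, 56.6 and 213 CPM in older WT ovary, 191, 182, 127 and 160 in 200H and 18, 41.8, 15.9 and 18.1 in 200M. WT held 2 high and 2 low libraries, all of 200H were high, and 200M overlapped WT at 1 library, replicate 2, and 200H at none. The log2 fold change was −2.83 against 200H (SE 0.33, edgeR adjusted p = 0.00635) and −2.64 against WT (SE 0.66, edgeR adjusted p = 0.0735, and 0.0293 without WT replicate 1, where 2 genes were called).

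Junb was at 27.5, 67, 42.2 and 55.2 CPM in WT, 74.9, 48.4, 61.3 and 58.8 in 200H and 33.2, 30.3, 29.3 and 22.4 in 200M. The 200M libraries lay below every 200H library and overlapped WT at replicate 1. These reads were unstranded as well, so those of the overlap with Prdx2 cannot be told apart. The log2 fold change against 200H was −1.09 (SE 0.17, edgeR adjusted p = 0.0207), and the call was lost without 200H replicate 1, 200H replicate 3, 200M replicate 1 or 200M replicate 4, at edgeR adjusted p = 0.0555 to 0.0666.

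Fos was at 22, 23.9, 13.2 and 14.4 CPM in WT, 33.4, 23.6, 32.3 and 51.6 in 200H and 15.1, 19.7, 13.6 and 13.5 in 200M. Ier2 was at 27.9, 38.92, 28 and 33.2 CPM in WT, 49.5, 66.7, 44.3 and 43 in 200H and 25, 36.9, 29.6 and 23.6 in 200M. For both genes the 200H libraries lay above those of 200M, and the log2 fold change of 200M against 200H was −1.20 for Fos (edgeR adjusted p = 0.0524) and −0.84 for Ier2 (edgeR adjusted p = 0.0796).

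Fosb was at 4.47, 2.88, 1.82 and 6.24 CPM in WT, 12.1, 9.63, 3.56 and 3.48 in 200H and 1.53, 2.16, 2.16 and 2.2 in 200M, and Nr4a2 at 9.63, 21.9, 10.5 and 13 in WT, 11.6, 10.7, 10.2 and 9.71 in 200H and 7.64, 8.63, 4.49 and 7.13 in 200M. Both had their lowest mean in 200M without a call by edgeR, while DESeq2 called Fosb in 200M against 200H (−1.84, DESeq2 adjusted p = 0.00438) and Nr4a2 in 200M against WT (−0.99, DESeq2 adjusted p = 0.0414). Arc was at 13.8, 0.881, 1.64 and 0.903 CPM in WT, 4.88, 38.2, 1.02 and 3.08 in 200H and 1.31, 0.479, 5.07 and 1.06 in 200M. A single library set its mean in WT and in 200H, and its log2 fold change against WT went from −1.11 to 0.82 in 200M without WT replicate 1 and from 1.44 to −0.53 in 200H without 200H replicate 2.

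**Figure D5:**
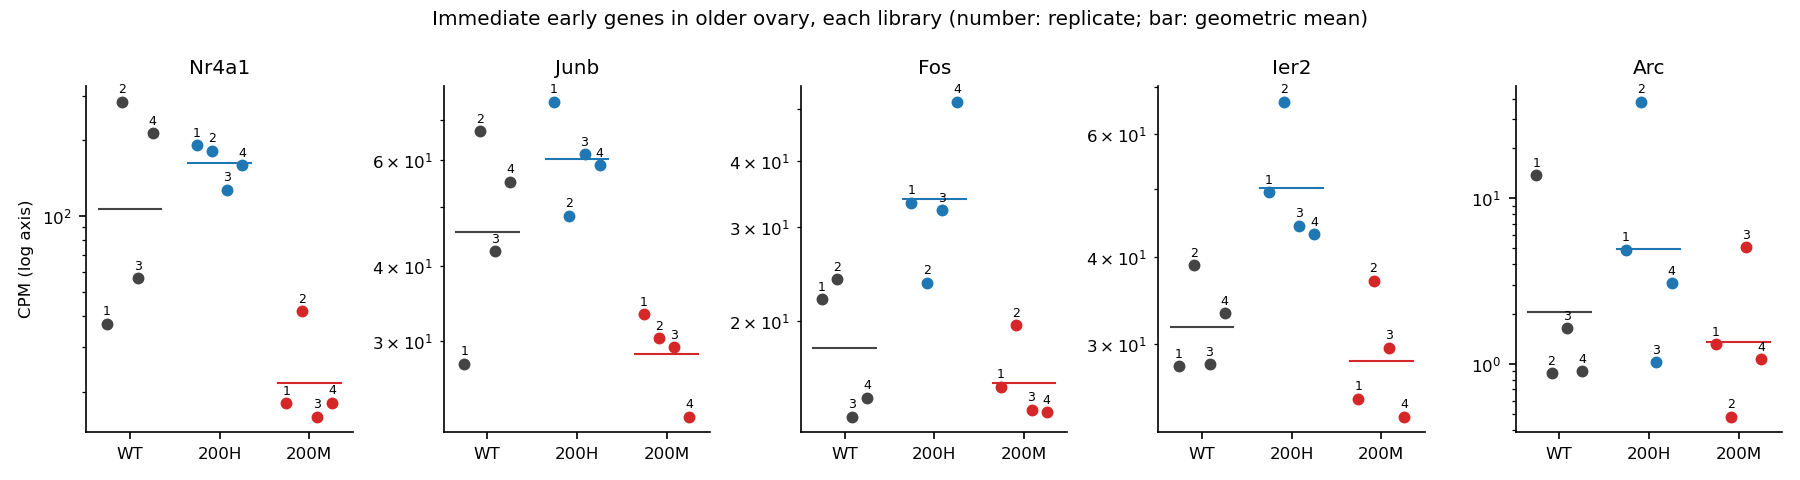
Level of Nr4a1, Junb, Fos, Ier2 and Arc in each older ovary library (CPM, log axis) by genotype, with the replicate number at each point and a bar at the geometric mean. The 200M points of Nr4a1, at 15.9 to 41.8 CPM, all lie below the 200H points, at 127 to 191 CPM.

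Other genes that the LH surge induces in ovary were read from a list of 16. In older 200M ovary against WT 2.71% of all genes were called. Of 11 tested in older 200M against WT 4 were lower and 0 higher, Sfrp4 by −6.68 (SE 0.37), Star, which carries cholesterol to the site of steroid synthesis and is in the luteal list too, by −3.77 (SE 0.64), Runx2 by −3.67 (SE 0.29) and Tnfaip6 by −2.91 (SE 0.42). The list holds genes that the study names from these libraries, Sfrp4, Star and Runx2 among them, so its direction is no independent evidence. Its summed level was 7020 to 20970 CPM in WT, 9044 to 14540 in 200H and 1731 to 4857 in 200M, and 6 luteal genes summed to 11460 to 26950, 13300 to 19810 and 5316 to 13040 CPM, with 1 of the 6, Star, called lower in 200M. Both sums had their lowest values in 200M, as Nr4a1 and Junb did, although the luteal sums of 200M and WT overlapped. The part of these genes in the lower Nr4a1 and Junb was not tested.

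In older 200M ovary against 200H, 1.61% of all genes were called and 0.902% were called lower. Of the other immediate early genes 4 of 50 were lower and 0 higher there, namely Sik1 (−1.52, SE 0.23), Csrnp1 (−1.40, SE 0.23), Bhlhe40 (−1.14, SE 0.21) and Zfp36 (−0.95, SE 0.18). Of the feedback inhibitors 2 of 18 were lower, the phosphatase genes Dusp1 (−2.54, SE 0.21) and Dusp8 (−1.77, SE 0.29). Of 20 heat shock and handling stress gene IDs 2 were lower, Fkbp5 (−1.44, SE 0.25) and Cdkn1a (−2.11, SE 0.40).

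An interaction term asked whether the effect of 200M was the same in the 3 tissues. It treated libraries of different tissues as independent, although the tissues may come from the same mice. In the young cohort the effect was lower in pituitary than in hypothalamus for 6 of 9 genes (10.5% of all genes called), Junb by −2.90 (SE 0.85), Nr4a2 by −2.02 (SE 0.29, edgeR adjusted p = 1.79e-05), Nr4a1 by −1.87 (SE 0.59), Fosb by −1.56 (SE 0.47), Npas4 by −1.16 (SE 0.31) and Nr4a3 by −0.82 (SE 0.23). DESeq2 called 5 of these, without Nr4a1 (−1.82, DESeq2 adjusted p = 0.0669). The count was 2 to 7 when 1 library was left out, and 2 without hypothalamus WT replicate 4 or hypothalamus 200M replicate 2. It was 3 without pituitary WT replicate 2, hypothalamus WT replicate 2 or 3, or hypothalamus 200M replicate 1 or 4. Against ovary the effect in young pituitary was lower for 2 of 9, Nr4a2 by −1.78 (SE 0.32) and Fosb by −1.74 (SE 0.52) (10.1% called), and the count was 6 without pituitary 200M replicate 4. It was 1 without pituitary WT replicate 2, pituitary 200M replicate 2 or 3, ovary WT replicate 2, 3 or 4, or ovary 200M replicate 3. Between hypothalamus and ovary 0 of 9 differed by edgeR (0.11% called), with 1 at an unadjusted p under 0.05 and 0 by DESeq2.

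In the older cohort Npas4 differed between pituitary and hypothalamus, by −1.48 (SE 0.41), as 1 of 10 genes (17.5% of all genes called). The count was 4 without pituitary WT replicate 4, 2 without pituitary WT replicate 1 and 0 without pituitary 200M replicate 1 or 3 or hypothalamus 200M replicate 2. Between pituitary and ovary 0 of 10 differed (5.77% called), and between hypothalamus and ovary 0 of 10 (0.897% called, with 1 gene without ovary WT replicate 1). Each had 2 at an unadjusted p under 0.05 and 0 by DESeq2.

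Between cohorts the 200M effect on the genes was not detectably different. The interaction in pituitary was called for 0 of 10 genes by edgeR (0.0273% of all genes called), with 0 at an unadjusted p under 0.05 and 0 by DESeq2, and the young effect minus the older one was −0.02 for Nr4a2 (SE 0.94), −0.12 for Nr4a1 (SE 1.15) and 0.54 for Npas4 (SE 0.37). Egr2, at 0 in all young pituitary libraries, entered that fit but gives no difference. In hypothalamus 0 of 9 were called (0.154%), with 1 at an unadjusted p under 0.05. None of the 9 received an adjusted p from DESeq2. In ovary 0 of 9 were called (0.197%), with 2 at an unadjusted p under 0.05 and 0 by DESeq2. The SEs near 1 in pituitary leave room for sizeable differences between the cohorts.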

How the data were processed

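RNA was sequenced from pituitary, hypothalamus and ovary of WT, 200H and 200M mice in both cohorts (69 libraries, 18 groups taken from the labels). The authors aligned reads with STAR 2.7.1a to mm10 (GRCm38) and deposited 18 tables of raw counts per gene, 1 per pair of genotypes. Older pituitary and hypothalamus were counted without strand with HTSeq 0.9.1 to Ensembl genes. With featureCounts and GENCODE vM25 genes, older ovary was counted without strand and young libraries on the reverse strand. The tables also hold the fold changes and p-values of the authors' DESeq2 tests, which were not used. Of the columns, 66 occur in 2 tables (0 genes differed) and 141 columns of per-library values were not used. Replicates of a group came from different mice per the study's methods.

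Quasi-likelihood F tests of edgeR 4.0.16 were run on the counts (in R 4.3.3 with limma 3.58.1), with TMM scaling, filterByExpr and Benjamini-Hochberg adjustment over all genes tested, and a gene was called at an adjusted p under 0.05. Each of the 18 genotype comparisons, the 6 comparisons of WT tissues and the 9 interactions had its own fit. Fits across tissues treated all libraries as independent. No animal is given per library, so mice shared between tissues could not be modelled. SEs are the log2 fold change divided by the square root of F. CPM used TMM factors, and log2 values a pseudocount of 0.5. The steps were tested on simulated data with 200 changed genes. Alternatives were DESeq2 1.42.0, RLE scaling, no filter on low counts, all 3 genotypes in 1 fit, the replicate number as a block, and each library left out. Depth limits low genes, so intervals and limits for a count of 0 cover counting error only.

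The 10 genes were given and all were named. Of each further list at most 5 genes per comparison were named, those called with the smallest p, and of the genes most like the 10 the 5 of highest correlation. These genes and lists (other immediate early genes, feedback inhibitors, upstream kinases and factors, late response, heat shock and handling stress, LH surge, and lactotrope, gonadotrope, neuron, red blood cell, granulosa and luteal markers) were chosen with earlier results of these data known. IDs were matched to symbols by the deposited symbol column, which named 55401 of 55964.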

Additional observations from a re-analysis of the deposited data

Results flagged for a closer look

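Dixon's criterion was applied to groups of 4 libraries, and groups of 3 were not checked. Fos in young WT pituitary replicate 2 (538 CPM, the nearest at 53.7) was thus not checked. Chance gives about 5% of groups for independent normal values, whereas these genes share libraries. Single libraries stood far from the rest of their group for 14 of the 134 combinations of gene and group checked. In young pituitary these were Fos in 200H replicate 3 (205 CPM, the nearest at 34.2) and in 200M replicate 4 (172 CPM, the nearest at 16.5), Junb and Ier2 in 200M replicate 4 (47.4 and 13.7 CPM, the nearest at 14.5 and 4.91), and Nr4a3 in 200H replicate 2 (155 CPM, the nearest at 50). In young hypothalamus they were Fos in 200H replicate 2 (27.1 CPM, the nearest at 14.8) and Arc in 200H replicate 3 (11.8 CPM, the nearest at 8.07), and in young ovary Arc in 200H replicate 4 (2.08 CPM, the nearest at 0.972). In older pituitary Fos stood out in WT replicate 2 (188 CPM, the nearest at 27), and in older hypothalamus Npas4 was low in 200H replicate 3 (11.3 CPM, the nearest at 21.4). In older ovary Fosb was low in 200M replicate 1 (1.53 CPM, the nearest at 2.16), and Nr4a1 in 200M replicate 2 (41.8 CPM, the nearest at 18.1) and Arc in WT replicate 1 (13.8 CPM, the nearest at 1.64) and 200H replicate 2 (38.2 CPM, the nearest at 4.88) were high. Of the 14, 3 came from the same library, young pituitary 200M replicate 4.

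The effect of 200M differed between tissues by the edgeR interaction test for 9 pairs of gene and comparison. In the young cohort the effect in pituitary minus that in hypothalamus was −1.56 for Fosb, −2.90 for Junb, −1.87 for Nr4a1, −2.02 for Nr4a2, −0.82 for Nr4a3 and −1.16 for Npas4, and minus that in ovary −1.74 for Fosb and −1.78 for Nr4a2. In the older cohort it was −1.48 for Npas4 in pituitary minus hypothalamus.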

How the results depend on the processing

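Of the tested log2 fold changes reported, 47 of 47 kept direction and side of the threshold with RLE scaling, 39 of 46 with DESeq2 (5 gained a call and 2 lost it, Junb in young 200M pituitary and Nr4a1 for the young 200M effect in pituitary minus hypothalamus), and 36 of 38 with all 3 genotypes in 1 fit (2 gained). Without the filter on low counts 26 of 47 did so and 21 gained a call, and with the replicate number as a block 31 of 38 did so, 6 gained a call and 1 lost it, Junb in older ovary 200M against 200H (−1.09, edgeR adjusted p = 0.0638). In every comparison without older ovary libraries, the fit without the filter had infinite prior degrees of freedom. Each gene then took the variance estimated from all genes at its level, so calls gained there do not weigh its own spread between libraries. The counts of immediate early genes called were within 1.5 times of the reported ones in 33 of 33 comparisons with RLE. With DESeq2 4 counts moved by more, and for the hypothalamus effect in young minus older no gene had an adjusted p, so that its count of 0 shows nothing. The causes of the changes below were not tested.

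With DESeq2 the count called was 1 in older pituitary 200H against WT and 2 in 200M against 200H, and 2 in older ovary 200M against WT and 5 in 200M against 200H. With all 3 genotypes in 1 fit the last 2 were 1 and 4. Without the filter on low counts the counts were 9 in young pituitary 200H against WT, 4 in 200M against 200H, 8, 6 and 7 in older pituitary 200M against WT, 200H against WT and 200M against 200H, and 1 each in young ovary 200M against WT, older hypothalamus 200H against WT and older ovary 200M against WT. They were 7 for the young effect in pituitary minus ovary, 8 for the older effect in pituitary minus hypothalamus and 1 for the pituitary effect in young minus older. With RLE 3 of the 5 genes most like the immediate early genes in older hypothalamus remained.

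Leaving out 1 library at a time gave 2 to 5 called in young pituitary 200H against WT, 0 to 1 in young ovary 200M against WT, 1 to 5, 0 to 1 and 0 to 5 in older pituitary 200M against WT, 200H against WT and 200M against 200H, and 0 to 2 and 1 to 2 in older ovary 200M against WT and against 200H. It gave 5 to 10 for older WT ovary against pituitary, 2 to 7 and 1 to 6 for the young effect in pituitary minus hypothalamus and minus ovary, 0 to 4 for the older effect in pituitary minus hypothalamus and 0 to 1 in hypothalamus minus ovary. The log2 fold change of Fos ran from −4.09 to 0.49 in young 200M and −3.25 to 0.90 in young 200H pituitary, and that of Arc from −2.14 to 0.82 in older 200M and −0.53 to 3.37 in older 200H ovary, all against WT. The values above 0 for Fos came without WT replicate 2.

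Same-numbered libraries of a tissue did not consistently deviate together, as 19 of 64 pairs correlated above 0.1 (−0.665 to 0.431). The check showed no pairing by number but cannot exclude one, and it was made within each tissue only. With the replicate number as a block the count called was 9 in young pituitary 200H against WT, where 1 residual degree of freedom remained and the prior degrees of freedom were infinite, 4 in older pituitary 200M against WT and 1 in older ovary 200M against 200H, and it was within 1.5 times in the 15 other comparisons.

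Over all genes the number called moved by more than 1.5 times as follows, with the reported number in parentheses. DESeq2 called 47 (7) in young pituitary 200M against 200H, 0 (3) and 1 (3) in young hypothalamus 200M and 200H against WT, 75 (1) in young ovary 200H against WT, 121 (18) in older pituitary 200M against 200H, 618 (1), 5 (0) and 667 (0) in older hypothalamus 200M against WT, 200H against WT and 200M against 200H, and 1320 (482), 21 (0) and 862 (288) in the same order in older ovary. For interactions it called 91 (21) for young hypothalamus minus ovary, 1699 (1082) and 568 (176) for older pituitary and hypothalamus minus ovary, and 17 (5), 357 (26) and 355 (43) for young minus older pituitary, hypothalamus and ovary, the first of which was 2 (5) with RLE. Without the filter the numbers were 130 (7) in young pituitary 200M against 200H, 30 (3), 10 (3) and 13 (0) in young hypothalamus, 845 (497), 241 (1) and 45 (0) in young ovary, 549 (18) in older pituitary 200M against 200H, 1079 (1), 97 (0) and 1325 (0) in older hypothalamus, 1 (0) in older ovary 200H against WT, 189 (21) for young hypothalamus minus ovary, and 78 (5), 239 (26) and 123 (43) for the cohort interactions. With all 3 genotypes in 1 fit they were 12 (7) and 11 (18) in young and older pituitary 200M against 200H, 0 (3) in young hypothalamus 200H against WT, 0 (1) in older hypothalamus 200M against WT, and 109 (497) and 815 (482) in young and older ovary 200M against WT. With the block they were 0 (7) in young pituitary 200M against 200H, 11 (3) in young hypothalamus 200M against WT, 150 (497) and 0 (1) in young ovary 200M and 200H against WT, 2 (1) and 1 (0) in older hypothalamus 200M against WT and 200H, and 101 (482) and 77 (288) in older ovary 200M against WT and 200H.

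Low counts left Egr2 below the filter, and so with no test between genotypes, in young pituitary, young hypothalamus and ovary of both cohorts, as were Ier2 in young hypothalamus and Arc in young ovary.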
